A study of Mus musculus with 12 samples.

Results

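The genes of oxidative phosphorylation described here are protein-coding rows of a gene count table. Their symbols carry the names of structural subunits of respiratory complexes I to V, which does not make every one a subunit. They were found by symbol (Ndufa, Ndufb, Ndufc, Ndufs and Ndufv genes without the Ndufaf assembly factors, Sdha to Sdhd, Uqcr genes, Cyc1, Cox4i to Cox8 genes, Atp5 genes and the mt- genes). The rule gave 100 genes of 21974 protein-coding rows in the table, of which 13 are encoded by the mitochondrial genome (mtDNA) and 87 by nuclear chromosomes. In the 12 samples, 78 nuclear and 7 mt-encoded members passed the filter on low counts.

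The cells were primary mesenchymal stromal cells (MSCs) from the bone marrow of wild-type C57BL/6 mice. Per the study's methods, MSCs were grown from the femurs of female mice 6 to 8 weeks old. There were 4 samples in each of 3 groups. The Negative group was untreated, the A1 group received 50 μM of A1, a molecule that joins cholic acid to the nuclear localization signal of hnRNPA1, and the A1-OVA group received the same dose of A1 together with 1 mg/mL of ovalbumin, both for 6 h. No group received ovalbumin without A1, and no source used here says whether the 4 samples of a group came from separate cultures, so the p-values measure only the spread between these samples. Depth was 13702348 to 16881995 counts per sample. The 10 MSC markers summed to 12031 to 12733 CPM (the usual sequencing unit of counts relative to library size, here scaled with TMM factors) in Negative, 9048 to 9681 in A1 and 9327 to 9922 in A1-OVA. The markers went different ways within that sum: Cxcl12 was at 3910, 1514 and 1692 CPM in the 3 groups and Pdgfra at 247, 125 and 111, both called lower, Cd44 was at 175, 458 and 402 and called higher, Col1a1 was not called, and Thy1 was under the filter on low counts. Of the 9 MSC markers tested, 4 were called lower and 1 higher in A1, and 5 lower and 1 higher in A1-OVA. The lower ones were 44.4% and 55.6%, beside 31.1% and 27.9% of all tested genes. The higher ones were 11.1% in each, beside 31.7% and 29.7%. Of the 5 adipocyte markers 3 were tested. Adipoq and Cidec were called lower in both treated groups at 2.2 CPM or less. The other tested marker was not called in A1 (log2 0.02) and was called higher in A1-OVA (log2 0.17). The adipocyte list summed to 62.7 to 78.9 CPM over all samples. A list of 4 RNAs that stay in the nucleus, which was not tested, summed to 385 to 571 CPM in Negative, 265 to 1193 in A1 and 218 to 651 in A1-OVA. Further, 5 of 6 erythroid markers were at 0 in every sample and the 5 endothelial markers together stayed under 1 CPM. The 8 macrophage markers summed to 9.41 to 10.5 CPM in Negative, 12 to 14.7 in A1 and 10.7 to 13.1 in A1-OVA, with 3 of the 8 at or under 3 counts in every sample. Of the 2 macrophage markers tested, 1 was called higher in A1 and 1 in A1-OVA. That is 50% in each, beside 31.7% and 29.7% of all tested genes. The part of these shifts in the results was not tested.

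Oxidative phosphorylation passes electrons from NADH (complex I) and succinate (complex II) through complexes III and IV to oxygen, and the proton gradient built on the way drives ATP synthase (complex V). Complexes I, III, IV and V are mosaics, since a few core subunits come from mtDNA and the others from nuclear genes, while complex II is nuclear throughout. mtDNA is transcribed inside the organelle by its own RNA polymerase into long precursors that are cut into single mRNAs, so that the RNAs of both genomes are made and destroyed by separate machineries.

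Of the 13 mt-encoded members, 6 were without usable counts. mt-Co2, mt-Atp8, mt-Atp6, mt-Nd3 and mt-Nd4l were listed at 0 in all 12 samples, and mt-Co3 had at most 1 count in any sample. These 6 genes lie next to each other on the mitochondrial chromosome, between mt-Co1 (chrM:5328-6872) and mt-Nd4 (chrM:10167-11544). Their neighbours on both sides were counted, with 86491 to 139309 counts per sample for mt-Co1 and 17472 to 28814 for mt-Nd4. Because sequence shared with annotated nuclear transcripts, described next, touches 5 of these rows, no level is given for the 6 genes. Among them are mt-Co2 and mt-Co3, which encode core subunits of complex IV, and mt-Atp6, which encodes the proton channel subunit of complex V.

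The transcript sequences of the GENCODE M21 annotation (GRCm38) hold nuclear copies of this stretch. Every mt mRNA was cut into all of its windows of 100 bases, and each window was looked up in the annotated transcripts of nuclear genes. For mt-Co2, 582 of 585 windows were found letter for letter in a nuclear transcript, for mt-Atp6 579 of 582, for mt-Co3 684 of 685, for mt-Nd3 243 of 249 and for mt-Nd4l 195 of 198. mt-Nd4 shared 777 of 1279 windows, mt-Co1 446 of 1446 and mt-Nd2 30 of 939. For mt-Nd1, mt-Nd5, mt-Nd6, mt-Cytb and mt-Atp8 no window was found in an annotated nuclear transcript, although the row of mt-Atp8 was at 0. Nuclear sequence outside annotated transcripts was not searched, so a copy of mt-Atp8 there would have been missed. Most copies are unprocessed pseudogenes side by side on chromosome 1, from Gm28439 (chr1:24611535-24612410) to Gm29216 (chr1:24615706-24616197), and those 7 held between 0 and 92 counts per sample, with 42 to 92 of them in Gm28438. The first 100 bases of the coding sequences of mt-Co2 and mt-Co3 are shown as examples of sequence that the pseudogenes Gm28661 and Gm28437 hold without a difference.
mt-Co2: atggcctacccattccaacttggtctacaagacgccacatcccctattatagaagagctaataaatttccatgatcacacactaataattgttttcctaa
mt-Co3: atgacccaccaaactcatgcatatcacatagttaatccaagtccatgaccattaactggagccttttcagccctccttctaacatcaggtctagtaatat
A read from either stretch cannot be placed by its sequence. How reads with several possible origins were counted is not given in the sources used here, and their part in the missing counts was not tested. The levels of mt-Co1 and mt-Nd4 rest on sequence that is shared in part.

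**Figure D1:**
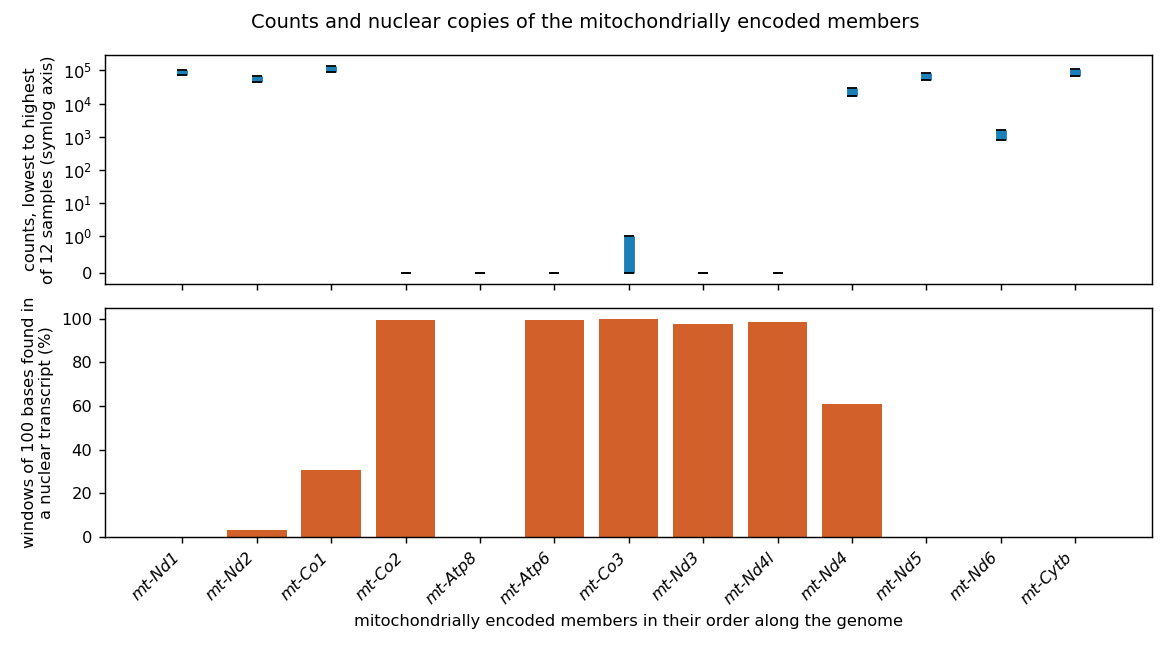
The 13 mt-encoded members in their order along mtDNA, with the lowest and highest count among the 12 samples (upper panel, symlog axis) and the percentage of 100-base windows found in a nuclear transcript (lower panel). The 6 neighbouring genes from mt-Co2 to mt-Nd4l have 0 or 1 count, and 5 of these 6 share 97.6% to 99.9% of their windows.

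Per kilobase of annotated exon, the 7 counted mt-encoded genes ranged in the Negative group from 145 CPM for mt-Nd6, a complex I subunit and the only mRNA read from the other strand of mtDNA, to 6243 for mt-Nd1, another subunit of complex I. mt-Cytb, the cytochrome b of complex III, had 5276 CPM per kilobase, mt-Co1, the catalytic subunit of complex IV, 5101, mt-Nd2 3701, mt-Nd5 2540 and mt-Nd4 1213. Among the nuclear members the highest levels per kilobase were those of Atp5b and Atp5a1, the beta and alpha subunits of the catalytic head of ATP synthase, at 297 and 233 CPM. The lowest of those tested were Atp5l at 1.31 and Ndufb4 at 1.44 CPM per kilobase.

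Several subunits exist as tissue isoforms, and in every pair the form known from liver and most other tissues carried the counts. Cox4i1, Cox6a1, Cox6b1, Cox7a2, Cox7b and Cox8a had 77.4 to 192 CPM in the Negative group. Their counterparts Cox4i2, Cox6a2, Cox6b2, Cox7a1, Cox7b2, Cox8b and Cox8c had at most 2 counts in any sample and were not tested, as was Ndufa4l2, against 246 CPM of Ndufa4. The 3 genes for the same c-ring subunit of ATP synthase differed per kilobase, with 96.6 CPM for Atp5g3, 6.92 for Atp5g2 and 6.24 for Atp5g1. Not divided by length, they were at 211, 11.6 and 30.6 CPM, so the order of Atp5g2 and Atp5g1 depends on the annotated exons. Atp5g2 shared 34.7% of its 100-base windows with 2 other genes, so its level is uncertain. A second row with the symbol Atp5o was at 0 in all samples, which makes 9 nuclear members under the filter. Of the 78 tested nuclear members, 47 shared no window with another gene and 11 shared 10% to 50%.

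A1 was compared with Negative to see what the molecule alone does to these transcripts after 6 h. Of the nuclear subunit RNAs 14 of 78 fell and 5 rose with edgeR's quasi-likelihood test at an adjusted p under 0.05, and the log2 fold changes ranged from -0.34 to 0.20. Over all 11314 tested genes, 31.1% were lower and 31.7% higher in A1, beside 17.9% and 6.41% of the nuclear members. The middle 50% of the nuclear members lay between -0.06 and 0.10 on the log2 scale, and that of all tested genes between -0.25 and 0.22. All 4 A1 samples were below all 4 Negative samples for 10 nuclear members, and above them for 0 (26.4% and 28% of all tested genes). The median of the nuclear members was 0.03, a sign that turned to -0.05 when counts were scaled by library size alone. No nuclear member reached a log2 fold change of 0.5 in either direction in any comparison.

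The 7 mt-encoded members all had negative estimates with A1, from -0.25 to -0.08 with a median of -0.13, and 3 of the 7 fell by the test. This count rose to 7 without A1 replicate 2 and dropped to 1 without Negative replicate 2. Their share of all raw counts, without TMM factors, was 2.92% to 3.17% in the Negative samples and 2.44% to 2.88% in the A1 samples. The groups did not overlap in this share. In TMM-scaled CPM 6 of the 7 genes overlapped and 1 was below in all A1 samples, beside 26.4% of all tested genes. The sample medians of the 7 genes (log2 CPM minus the Negative mean) also overlapped, at -0.07 to 0.07 in Negative and -0.25 to 0.02 in A1. The nuclear members took 0.754% to 0.852% of counts in Negative and 0.727% to 0.771% in A1, where the ranges overlapped. The mitochondrial rRNAs, which are no members, took 0.425% to 0.482% in Negative, 0.354% to 0.41% in A1 and 0.322% to 0.376% in A1-OVA.

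A1-OVA was compared with the same 4 Negative samples, so both comparisons share their controls and are not independent. Of the nuclear members 9 fell and 4 rose, 11.5% and 5.13% of those tested, beside 27.9% lower and 29.7% higher among all tested genes. The estimates ranged from -0.39 to 0.21 with a median of 0.03, which became -0.03 when scaled by library size alone and -0.01 when scaled within 10 classes of exonic length. Of the mt-encoded members 6 of 7 fell, the estimates ran from -0.30 to -0.14, and the median was -0.23. For 5 of the 7 all A1-OVA samples were below all Negative samples, which held for 24% of all tested genes. It also held for 8 of the 78 nuclear members. The opposite separation was seen for 25.4% of all tested genes and for 2 nuclear members, Cyc1 and, named after its values were seen, Ndufb6. The mt-encoded share of counts was 2.44% to 2.68%, below every Negative sample, and the nuclear share was 0.737% to 0.763%.

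**Figure D2:**
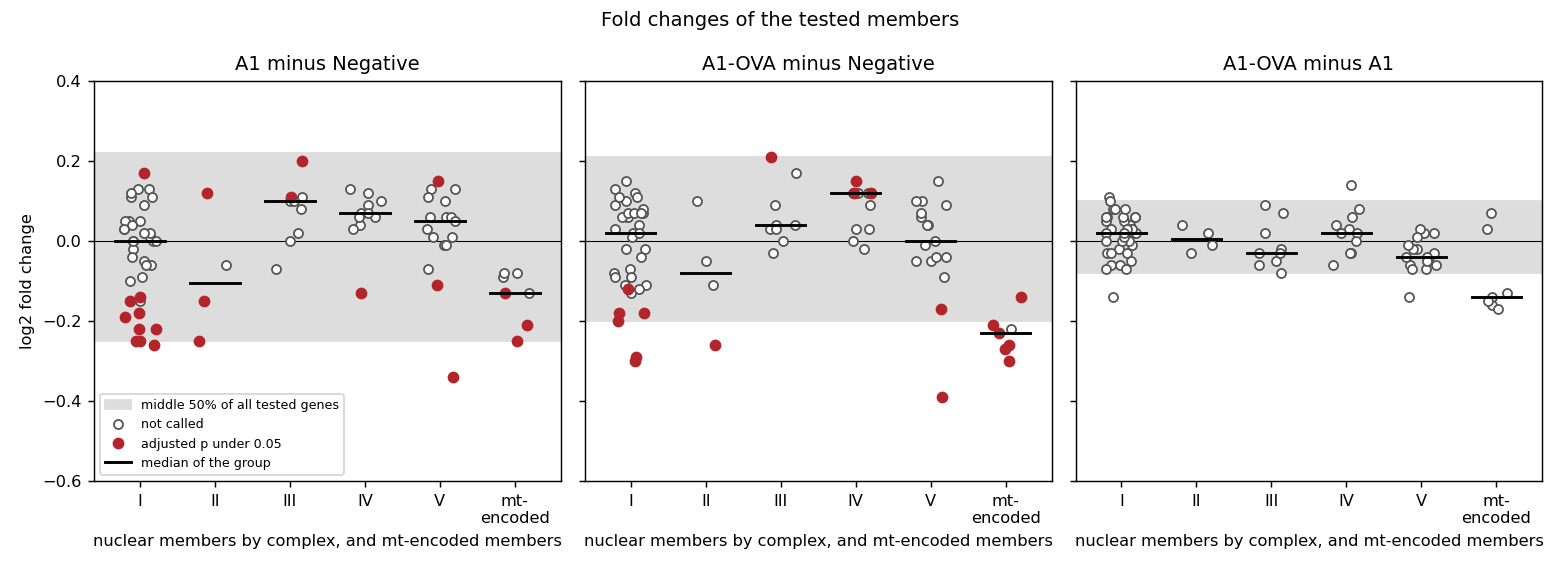
Log2 fold change of each tested member in the 3 comparisons, by complex for the nuclear members and together for the mt-encoded members. Filled points had an adjusted p under 0.05, black lines are group medians, and the grey band holds the middle 50% of all tested genes. Nuclear members centre near 0 with at most 0.39 of change, and the mt-encoded medians lie at -0.13, -0.23 and -0.14.

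Of the single genes the mt-encoded ones are given first. mt-Co1 read 7514, 8234, 7769 and 8004 CPM in Negative, 6255, 7313, 7219 and 6554 in A1, and 6905, 7648, 7040 and 7101 in A1-OVA. All A1 samples were below all Negative samples, and the fall of 0.21 ± 0.05 (log2, SE; adjusted p = 0.00106, edgeR) held in all 23 refits. In A1-OVA mt-Co1 changed by -0.14 ± 0.05 (edgeR adjusted p = 0.0226) and overlapped with Negative, a call that ended without Negative replicate 2, Negative replicate 4 or A1-OVA replicate 1.

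mt-Nd5, a proton-pumping subunit of complex I, read 4331, 4982, 4517 and 4698 CPM in Negative, 3898, 4599, 4562 and 3897 in A1, and 3762, 4161, 3596 and 3514 in A1-OVA. Every A1-OVA sample was below every Negative sample, while 2 of the 4 A1 samples lay within the Negative range. The A1-OVA value was 18.9% lower (log2 -0.30 ± 0.06, edgeR adjusted p = 0.000221), and the A1 value was -0.13 ± 0.06 with an adjusted p of 0.0721. mt-Cytb was at 6036 ± 238 CPM in Negative, 5720 ± 473 in A1 and 5153 ± 241 in A1-OVA (SD, n = 4 each). It fell by 0.23 ± 0.05 in A1-OVA and was not called in A1. mt-Nd1 went from 5975 ± 172 CPM to 5669 ± 480 and 5168 ± 204, mt-Nd2 from 3842 ± 207 to 3603 ± 351 and 3219 ± 200, and mt-Nd4 from 1672 ± 40.7 to 1526 ± 133 and 1386 ± 92.1.

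In A1-OVA these 3 complex I genes fell by 0.21, 0.26 and 0.27, and in A1 only mt-Nd4 passed the test (-0.13 ± 0.05, edgeR adjusted p = 0.0379), a call that 5 of the 12 refits without 1 sample ended. The A1 samples 1 and 4 read low in all 7 genes and samples 2 and 3 high, and the SD of A1 was the largest of the 3 groups for every one but mt-Nd6. mt-Nd6, at 75.4 ± 14.4, 63.5 ± 7.65 and 64.7 ± 5.79 CPM, was called lower in A1 (-0.25 ± 0.10) and not in A1-OVA (-0.22 ± 0.10, edgeR adjusted p = 0.0617). Its groups overlapped in both comparisons.

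**Figure D3:**
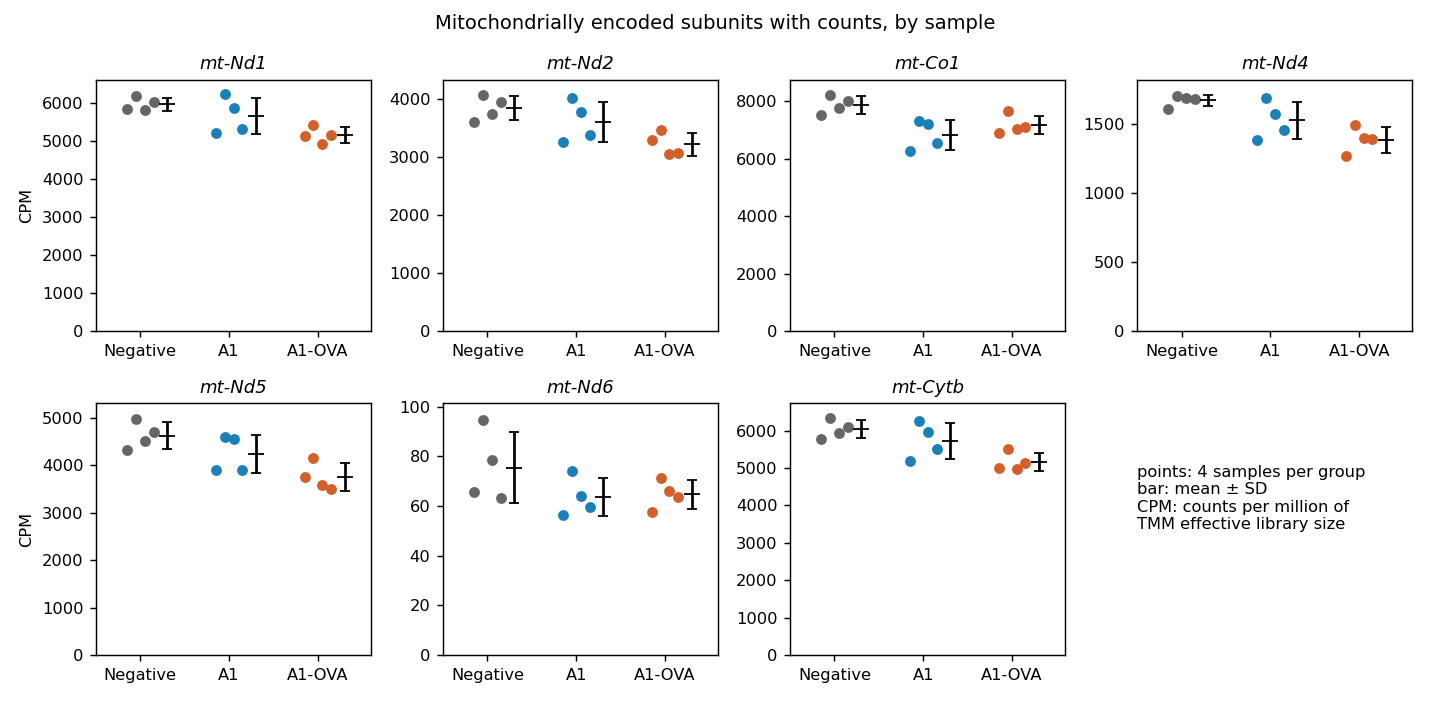
CPM of the 7 counted mt-encoded members in each sample (points, 4 per group) with mean and SD (bars). The A1-OVA samples lie below the Negative samples in mt-Nd1, mt-Nd2, mt-Nd4, mt-Nd5 and mt-Cytb, while the 4 A1 samples spread across both ranges.

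Of the 4 subunits of complex II, 2 fell and 1 rose in A1 and 1 fell in A1-OVA. Among all tested genes 31.1% fell and 31.7% rose in A1, and 27.9% fell in A1-OVA, beside 50%, 25% and 25% of these 4. Sdha (chr13:74322254-74350280), the subunit that oxidizes succinate, read 282, 284, 284 and 281 CPM in Negative, 242, 230, 237 and 244 in A1, and 231, 238, 240 and 237 in A1-OVA. All treated samples were below all Negative samples. The level was 15.8% lower in A1 (log2 -0.25 ± 0.03, edgeR adjusted p = 1.46e-06) and 16.4% lower in A1-OVA (log2 -0.26 ± 0.03, edgeR adjusted p = 8.5e-07), and both calls held in all 23 refits. Sdhc, a membrane anchor of the complex, fell by 0.15 ± 0.05 in A1 and was at -0.11 ± 0.05 in A1-OVA (edgeR adjusted p = 0.0511). Sdhb, the iron-sulfur subunit, was not called, at -0.06 and -0.05.

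Sdhd, the other membrane anchor, went the opposite way in A1. It read 79.0, 72.2, 72.4 and 71.4 CPM in Negative and 79.8, 78.5, 82.5 and 80.7 in A1, an estimate of 0.12 ± 0.04 (edgeR adjusted p = 0.0139). Negative replicate 1 was the only control inside the range of the A1 samples. This call was lost with upper-quartile factors, with library sizes alone, with scaling within length classes and without A1 replicate 3. In A1-OVA Sdhd read 81.2, 78.4, 76.4 and 79.5 CPM, and its estimate of 0.10 was not called.

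**Figure D4:**
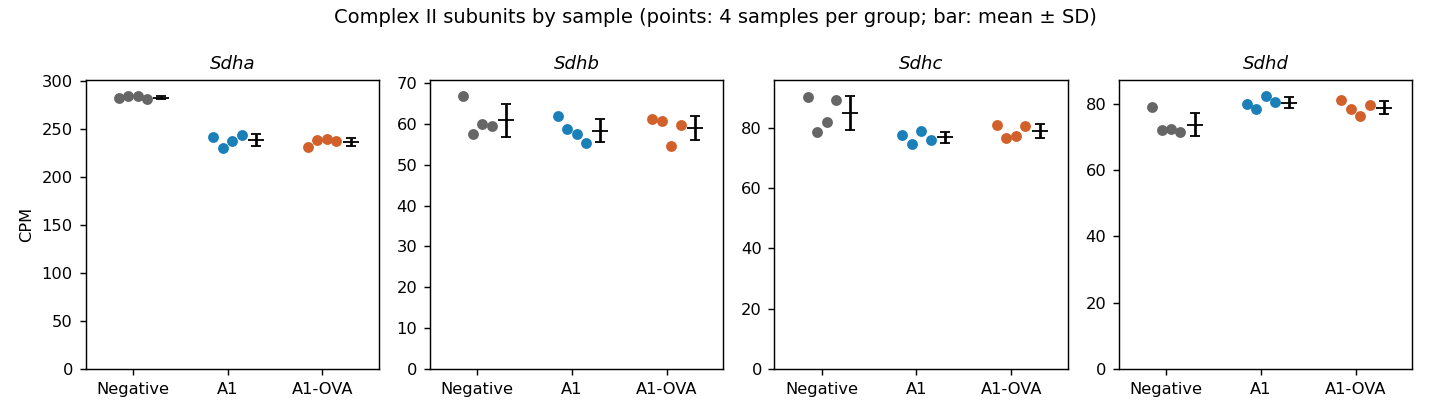
CPM of the 4 subunits of complex II in each sample (points, 4 per group) with mean and SD (bars). The Sdha points fall from 281 to 284 CPM in Negative to 230 to 244 in A1 and 231 to 240 in A1-OVA, and the Sdhd points of A1 lie at 78.5 to 82.5 CPM against 71.4 to 79.0 in Negative.

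The promoters of these 2 genes were read for motifs of factors known to drive respiratory genes. Of the 87 nuclear members 69 were found in a RefSeq table of promoter sequence (GRCm38.p6), with 74 starts between them, and the 250 bases before each start were searched on both strands. NRF1 was searched as GCGCA, any base, then GCGC, GABPA as CCGGAAG, ERR alpha as AAGGTCA and YY1 as AANATGGCG, where N is any base. The NRF1 motif stood in 18.9% of the members' promoters against 3.74% of all 32851 promoters of the table, GABPA in 16.2% against 6.91%, ERR alpha in 6.76% against 4.08%, and YY1 in 4.05% against 1.12%. At least 1 of the 4 motifs stood before 2 of the 11 members in the table that fell in A1, 1 of the 4 that rose, 23 of the 50 that were tested and not called, and 0 of the 4 that were not tested. Sdha (chr13:74350241-74350490, minus strand) holds the NRF1 motif 3 times, and Sdhd (chr9:50603850-50604099, minus strand) holds it once, followed by a GABPA motif on the opposite strand. Both sequences run up to the base before the RefSeq start, with motifs in capitals. For Sdha that start lies inside the GENCODE gene (chr13:74322254-74350280), so the last bases, with the NRF1 motif nearest the start, overlap the annotated gene. They are shown because both hold the NRF1 motif while Sdha fell and Sdhd rose in A1.
Sdha: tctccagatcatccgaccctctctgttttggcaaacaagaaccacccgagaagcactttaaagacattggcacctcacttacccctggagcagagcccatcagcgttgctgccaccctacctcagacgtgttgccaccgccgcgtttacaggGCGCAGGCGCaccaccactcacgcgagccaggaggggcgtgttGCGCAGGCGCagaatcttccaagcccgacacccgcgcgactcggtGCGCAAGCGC
Sdhd: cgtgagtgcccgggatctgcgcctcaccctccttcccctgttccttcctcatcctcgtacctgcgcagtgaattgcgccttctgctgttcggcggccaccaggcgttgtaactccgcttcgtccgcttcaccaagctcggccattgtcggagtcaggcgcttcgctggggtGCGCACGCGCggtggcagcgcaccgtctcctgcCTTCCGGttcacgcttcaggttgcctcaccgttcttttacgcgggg

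Of the 37 tested nuclear members of complex I, 9 fell and 1 rose in A1, and 6 fell in A1-OVA. The members that fell were 24.3% and 16.2% of those tested, below the 31.1% and 27.9% of all tested genes. Ndufs1, the large iron-sulfur subunit, read 150, 154, 138 and 143 CPM in Negative, 133, 124, 131 and 128 in A1, and 130, 130, 131 and 125 in A1-OVA. It fell by 0.18 ± 0.04 in both comparisons without overlap.

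Ndufv3, a small accessory subunit of the NADH-binding module, read 70.2, 58.8, 67.0 and 64.1 CPM in Negative, 54.7, 55.3, 54.0 and 54.6 in A1, and 51.5, 51.0, 52.0 and 56.8 in A1-OVA. It was 16% lower in A1 and 18.7% lower in A1-OVA. Ndufb10, an accessory subunit of the membrane arm, read 89.8, 81.7, 83.2 and 81.2 CPM in Negative, 70.7, 70, 73.2 and 68.0 in A1, and 74.3, 77.0, 69.5 and 72.2 in A1-OVA. It fell by 0.25 ± 0.05 and 0.20 ± 0.04, again without overlap. The calls of Ndufs1, Ndufv3 and Ndufb10 held in all 23 refits of both comparisons.

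The accessory subunit Ndufa6 fell in A1 (log2 -0.22 ± 0.06, edgeR adjusted p = 0.00344) and was at -0.11 ± 0.06 in A1-OVA. Ndufv2, a core subunit next to the NADH site, Ndufc1 and Ndufs4 fell by 0.15, 0.19 and 0.14 in A1, and Ndufb2 by 0.22 ± 0.09 in A1 and by 0.29 ± 0.09 in A1-OVA, with overlapping groups. The A1 call of Ndufb2 was lost in DESeq2 and without Negative replicate 1 or 3 or A1 replicate 2 or 3. Ndufs8, a core iron-sulfur subunit, fell by 0.12 ± 0.05 in A1-OVA, a call that 6 of the 12 refits without 1 sample ended. The other core subunits Ndufs3, Ndufs7 and Ndufv1 were between -0.06 and 0.11 in both comparisons and were not called. Ndufa1 was the complex I member that rose in A1 (0.17 ± 0.06, edgeR adjusted p = 0.0197), and this call was lost with upper-quartile factors, with library sizes alone, without Negative replicate 2 or 4 and without A1 replicate 1 or 3.

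In complex III no nuclear member fell in either comparison (0 of 9 with edgeR, 0 at an unadjusted p under 0.05 and 0 with DESeq2). Among all tested genes 31.1% fell in A1 and 27.9% in A1-OVA. The members that rose were 22.2% and 11.1%, beside 31.7% and 29.7% of all tested genes. Cyc1, the cytochrome c1 that hands electrons to cytochrome c, read 58.2, 48.6, 57.9 and 55.6 CPM in Negative, 65.2, 54.1, 59.7 and 59.0 in A1, and 60.9, 64.0, 66.4 and 62.6 in A1-OVA. All A1-OVA samples were above all Negative samples, while A1 overlapped with them. The rise in A1-OVA was 15.3% (log2 0.21 ± 0.06, edgeR adjusted p = 0.0052), and of 23 refits only the scaling by library size alone ended it. Uqcrfs1, the Rieske iron-sulfur protein, and Uqcrq, a small accessory subunit, rose in A1 by 0.11 ± 0.04 and 0.20 ± 0.08. Their groups overlapped, and 10 and 7 of 23 refits ended these calls, among them those without Negative replicate 2 or 4 and without A1 replicate 1 or 2.

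In complex IV the 11 tested nuclear members had a median of 0.07 in A1 and 0.12 in A1-OVA. Those that rose in A1-OVA were 27.3%, beside 29.7% of all tested genes. In A1-OVA Cox4i1, Cox5a and Cox5b, the nuclear subunits that sit against the catalytic core, rose by 0.12 ± 0.05, 0.12 ± 0.05 and 0.15 ± 0.06. Cox4i1 read 213, 187, 193 and 177 CPM in Negative and 214, 204, 204 and 217 in A1-OVA, so that Negative replicate 1 stood among the treated samples. The 3 calls were near the threshold, with edgeR adjusted p of 0.0276, 0.0423 and 0.0452, and 8, 13 and 17 of 23 refits ended them. Each was lost, among others, without Negative replicate 2, Negative replicate 4 or A1-OVA replicate 4. Cox7a2l, a gene linked to supercomplexes of complexes III and IV, was the single member of this group that fell in A1 (-0.13 ± 0.05). It makes up 9.09% of the tested members, beside 31.1% of all tested genes lower. In A1-OVA it was at 0.00. The A1 call of Cox7a2l ended without Negative replicate 1 or 4 and without A1 replicate 2 or 4. Cox6a1, Cox6b1, Cox7a2, Cox7b and Cox8a had estimates of 0.03 to 0.12 in both comparisons and were not called.

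In complex V the catalytic subunits Atp5a1 and Atp5b were not called, with 730 ± 16.9 and 1259 ± 49 CPM in Negative, 723 ± 17.7 and 1316 ± 35.2 in A1, and 703 ± 14 and 1291 ± 15.2 in A1-OVA (SD, n = 4 each). The standard errors of their log2 fold changes were 0.03 to 0.04. Atp5s, placed in complex V by its symbol alone and listed as Dmac2l in the RefSeq promoter table, had the largest fall of any tested member. It read 9.9, 9.28, 10.1 and 10.2 CPM in Negative, 7.09, 7.48, 8.02 and 8.64 in A1, and 7.1, 7.41, 7.2 and 8.32 in A1-OVA. The groups did not overlap, and the fall of 20.7% in A1 (log2 -0.34 ± 0.09) and 23.6% in A1-OVA (log2 -0.39 ± 0.09) held in all 23 refits. Atp5f1, a subunit of the peripheral stalk, fell by 0.11 ± 0.04 in A1 and by 0.17 ± 0.04 in A1-OVA. Atp5d, the delta subunit of the central stalk, rose by 0.15 ± 0.05 in A1, a call lost with upper-quartile factors, with library sizes alone and without Negative replicate 2 or 4. The c-ring genes Atp5g1, Atp5g2 and Atp5g3 and the complex I or IV subunit Ndufa4 were not called in any comparison.

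Negative replicate 1 had the highest share of nuclear member counts of all 12 samples, 0.852% against 0.754% to 0.775% in the other Negative samples, and its nuclear members lay 0.12 above the Negative mean in the median (log2 CPM), its mt-encoded members 0.07 below. Without this sample 21 nuclear members were called higher in A1 in place of 5, and 18 in A1-OVA in place of 4, with medians of 0.07 in both comparisons. The counts of lower members were 9 and 8 without it. Transcript length also moved with the estimates: the nuclear members had a median exonic length of 1737 bases against 4617 for all tested genes, and the 10% of tested genes with the shortest exons had a median of 0.07 in A1, the 10% with the longest -0.07. Scaled within length classes, 2 nuclear members were higher in A1 and all 7 mt-encoded members lower. The part of either in the results was not tested.

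A1-OVA was compared with A1 directly to see what ovalbumin added. No member was called in edgeR's test, while 6.81% of all tested genes were lower and 6.05% higher. At an unadjusted p under 0.05, 5 mt-encoded members were lower, and 1 nuclear member was lower and 1 higher. DESeq2 called 2 mt-encoded members lower and no nuclear member. The mt-encoded median was -0.14, with 5 of the 7 between -0.17 and -0.13, mt-Nd6 at 0.03 and mt-Co1 at 0.07, and the nuclear median was 0.00 with a range of -0.14 to 0.14. The groups did not overlap for 2 nuclear members, Cox4i1 and, named after its values were seen, Uqcrc2, both higher in A1-OVA, and for no mt-encoded member (9.58% of all tested genes separated downwards and 8.56% upwards). The edgeR count of mt-encoded members lower in A1-OVA was 5 without A1 replicate 1 and 4 without A1-OVA replicate 2.

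Genes that serve the pathway without being subunits were read beside them. Of 133 tested genes in 11 lists of assembly factors, electron carriers, mtDNA and mitochondrial RNA factors and nuclear regulators, 46 rose and 24 fell in A1, with estimates from -1.09 to 0.70. In A1-OVA 47 rose and 17 fell, and against A1 2 rose and 4 fell. These shares of 34.6% higher and 18% lower in A1 stand beside the 31.7% and 31.1% of all tested genes given above. In A1-OVA they were 35.3% and 12.8%, beside 29.7% and 27.9%. Between the treated groups they were 1.5% higher and 3.01% lower, beside 6.05% and 6.81%.

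Cytochrome c, which carries electrons from complex III to complex IV, was among those that rose. Cycs read 77.0, 80.6, 76.8 and 66.1 CPM in Negative, 104, 98.3, 113 and 106 in A1, and from 90.0 to 109 in A1-OVA. The log2 fold changes were 0.49 ± 0.06 and 0.42 ± 0.06 with no overlap. In the same list of 14 carriers and coenzyme Q genes, Coq10b, a coenzyme Q binding protein, rose by 0.57 in both comparisons, while Coq9, needed for coenzyme Q synthesis, fell by 0.68 and 0.53 and Coq8a, a kinase-like protein of the same route, by 1.09 in each at 1.55 CPM in Negative.

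Assembly factors went both ways. For complex I, 3 of 18 rose and 5 fell in A1. These were 16.7% and 27.8% of the list, beside 31.7% higher and 31.1% lower among all tested genes. Ndufaf4 rose by 0.55 ± 0.06, whereas Tmem126b fell by 0.48 ± 0.06 and Ndufaf3 by 0.54 ± 0.18. In A1-OVA 6 rose and 3 fell (33.3% and 16.7%, beside 29.7% and 27.9% of all tested genes), and Foxred1 fell by 0.38. Ndufaf7, a methyltransferase of complex I assembly, fell by 0.24 in A1 and was 0.19 ± 0.05 higher in A1-OVA than in A1 (edgeR adjusted p = 0.019). For complex IV, 6 of 23 rose and 6 fell in A1, and 4 rose and 5 fell in A1-OVA. These were 26.1% each in A1 and 17.4% and 21.7% in A1-OVA, under the shares of all tested genes. Coa3, which stabilizes newly made mt-Co1 protein, read 12.1, 11.1, 9.9 and 11.3 CPM in Negative, 6.8, 6.26, 5.34 and 5.16 in A1, and 5.65, 6.58, 5.08 and 6.35 in A1-OVA, a fall of 0.91 ± 0.11 and 0.90 ± 0.10. Cox20, a chaperone of the mt-Co2 protein, fell by 0.45 and 0.55, and Sco2, a copper chaperone of the same protein, rose by 0.67 ± 0.20 and 0.59 ± 0.20 at 2.00 CPM in Negative, with overlapping groups.

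The other assembly lists were smaller. For complex III, 1 of 6 rose and 3 fell in A1, and 2 rose and 1 fell in A1-OVA. These were 16.7% and 50% in A1, beside 31.7% higher and 31.1% lower among all tested genes. In A1-OVA they were 33.3% and 16.7%, beside 29.7% and 27.9%. For complex III, Ttc19 rose by 0.45 and 0.55, Uqcc3 fell by 0.30 and 0.24, Lyrm7 and Bcs1l fell by 0.46 and 0.21 in A1 and Uqcc1 rose by 0.13 in A1-OVA. For complex II, Sdhaf4, which assists the assembly of Sdha, fell by 0.26 and 0.33, and Sdhaf3 rose by 0.24 in A1-OVA. For complex V, Tmem70 rose by 0.29 and 0.40. The complex II list had 4 genes and 1 call in A1, and the complex V list 4 genes and 1 call in each comparison with Negative. In A1 these were 25% lower and 25% higher, beside 31.1% lower and 31.7% higher among all tested genes. In A1-OVA 25% of the complex II list rose and 25% fell, and 25% of the complex V list rose. Among all tested genes 29.7% were higher and 27.9% lower in A1-OVA.

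Factors that copy and keep mtDNA come next. Of 13 genes for the upkeep of mtDNA, 7 rose and 1 fell in A1, and 8 rose and 1 fell in A1-OVA, with medians of 0.17 and 0.25. The genes that rose were 53.8% and 61.5% of the list, beside 31.7% and 29.7% of all tested genes. Dna2, a nuclease and helicase of mitochondria and nucleus, rose by 0.70 ± 0.09 and 0.68 ± 0.09, Twnk, the mtDNA helicase, by 0.48 in both, and Polg, the catalytic subunit of the mtDNA polymerase, by 0.29 and 0.49. Polg was 0.20 ± 0.05 higher in A1-OVA than in A1 (edgeR adjusted p = 0.0157), and Dguok, a deoxyguanosine kinase that feeds the nucleotide pool, fell by 0.56 and 0.46. Tfam, which packs mtDNA and starts its transcription, rose by 0.17 ± 0.04 in A1 and was at 0.08 ± 0.04 in A1-OVA.

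Of 10 transcription factors of mtDNA 3 rose and 2 fell in each comparison with Negative. These were 30% and 20% of the list, beside 31.7% and 31.1% of all tested genes in A1 and 29.7% and 27.9% in A1-OVA. Tfb2m, which opens the promoter for the polymerase, rose by 0.36 and 0.26, Tefm, the elongation factor, rose by 0.33 in A1-OVA, Mterf2 fell by 0.54 and 0.42, and Mterf4 fell by 0.24 and 0.19. Polrmt, the mitochondrial RNA polymerase itself, was not called, at 0.10 ± 0.08 in A1, -0.11 ± 0.08 in A1-OVA and -0.21 ± 0.08 between the treated groups.

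In the list for mitochondrial RNA processing 12 of 21 rose and 1, Hsd17b10, fell in A1, and 10 of 21 rose in A1-OVA. These were 57.1% and 47.6% of the list, beside 31.7% and 29.7% of all tested genes higher. Tbrg4, also called FASTKD4 and known to stabilize certain mt mRNAs, read 32.9, 28.1, 33.4 and 35.5 CPM in Negative, 51.9, 50.4, 50.8 and 48.4 in A1, and 48.1, 45.6, 50.1 and 47.7 in A1-OVA, a rise of 0.63 ± 0.06 and 0.56 ± 0.06. Elac2 and Trmt10c, which cut the tRNAs out of the precursor, rose by 0.39 and 0.38 in A1 and by 0.40 and 0.51 in A1-OVA, and Fastkd1 by 0.42 in A1-OVA. Lrpprc, which keeps mt mRNAs stable and polyadenylated, was at 0.03 ± 0.04 in A1 and rose by 0.14 ± 0.04 in A1-OVA. Among 11 genes listed for mitochondrial translation, not all of them translation factors, 4 rose and 1 fell in A1, with Gfm1 at 0.26, Tsfm at 0.20 and Gfm2 at -0.18. These were 36.4% higher and 9.09% lower, beside 31.7% and 31.1% of all tested genes. In A1-OVA 2 rose (18.2%, beside 29.7%), Tsfm by 0.27 and Gfm1 by 0.17. Letm1 was 0.13 lower in A1-OVA than in A1, with overlapping groups. It was the only gene of this list called between the treated groups (9.09%, beside 6.81% of all tested genes lower).

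Of the nuclear regulators 10 of 14 were tested, and 7 rose in A1, and 4 rose and 1, Sp1, fell in A1-OVA, so that 70% and 40% of those tested rose, beside the same 31.7% and 29.7%. Esrra, the nuclear receptor ERR alpha, read 16, 11.9, 13.7 and 14.4 CPM in Negative, 22.3, 23.4, 24.2 and 19.4 in A1, and 23.4, 21.9, 24.5 and 22.1 in A1-OVA, a rise of 0.67 ± 0.09 and 0.71 ± 0.08. Pprc1, a coactivator of the PGC-1 family, rose by 0.56 ± 0.06 and 0.55 ± 0.06, and Ppard by 0.22 in A1-OVA. The family's best known member, Ppargc1a, had 0 to 3 counts and was not tested, and Ppargc1b was not called at 1.52 CPM in Negative. Nrf1 rose by 0.14 ± 0.05 in A1 and was at 0.11 ± 0.05 in A1-OVA. Gabpa and Gabpb1, subunits of the same ETS factor, rose by 0.13 and 0.28 in A1 and were 0.18 ± 0.04 and 0.15 ± 0.05 lower in A1-OVA than in A1 (edgeR adjusted p = 0.00632 and 0.0459), as was Gabpb2 by 0.13.

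**Figure D5:**
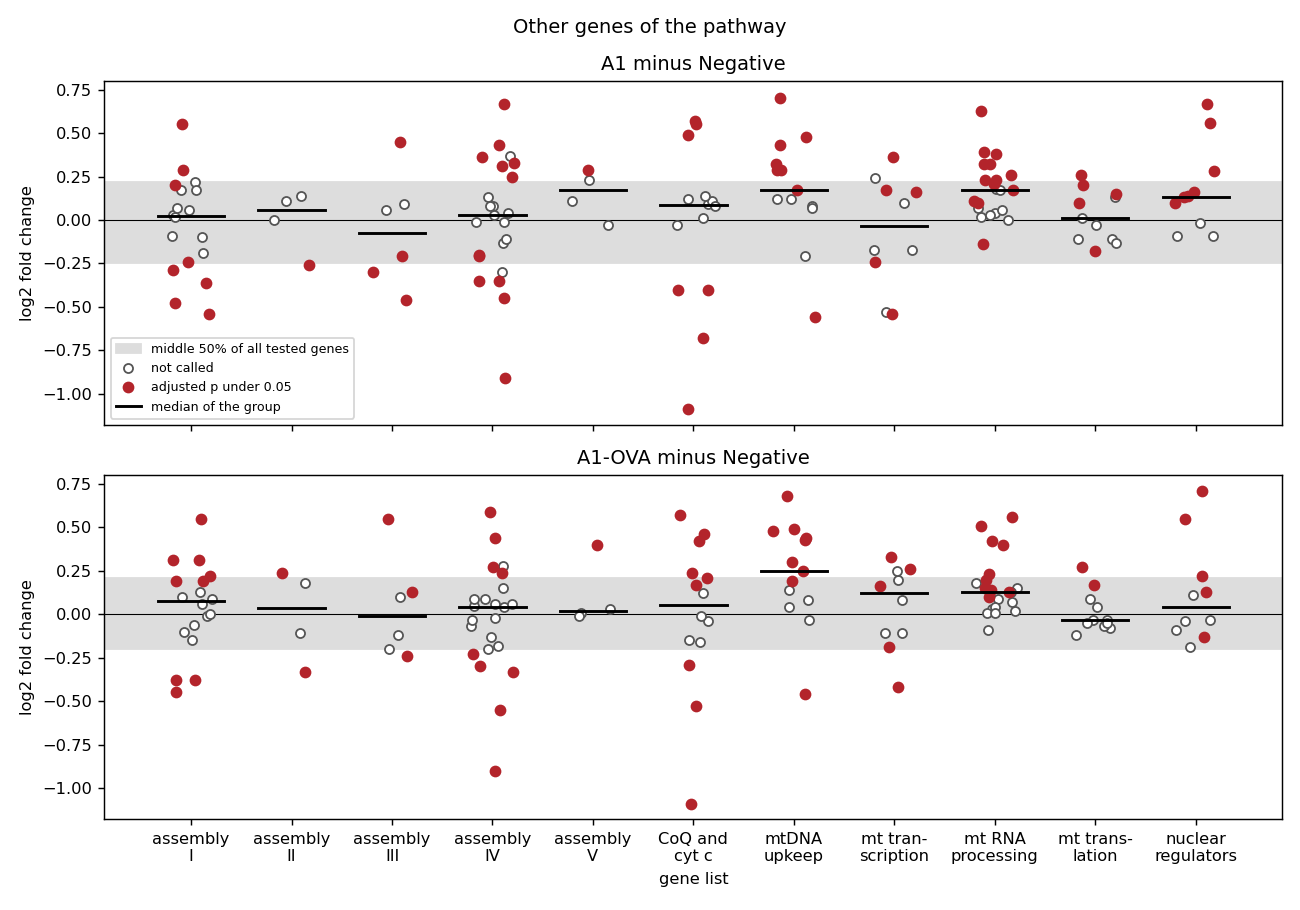
Log2 fold change of the tested genes of 11 lists that serve the pathway, in A1 (upper panel) and A1-OVA (lower panel) against Negative. Filled points had an adjusted p under 0.05, black lines are list medians, and the grey band holds the middle 50% of all tested genes. Lists for mtDNA upkeep and mt RNA processing have medians of 0.17 each in A1 and 0.25 and 0.13 in A1-OVA.

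In these bulk samples fewer cells of a type and less RNA per cell cannot be told apart, and CPM are shares of the counted RNA and not amounts per cell. Of the nuclear members 8 were called lower in both comparisons with Negative, 6 in A1 and not in A1-OVA, and 1 in A1-OVA and not in A1, and none of these was called between the treated groups.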

How the data were processed

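PolyA RNA of 12 MSC samples was sequenced from stranded libraries. Per the labels and the study's methods, the authors used bcl2fastq 2.20, STAR 2.7 and featureCounts 2.0 on GRCm38, and the values they deposited are raw read counts per gene. How reads with several possible origins were counted is not given in the sources used here. Symbols, positions and exonic lengths came from GENCODE M21, which matched 99.53% of the gene IDs.

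Counts of protein-coding genes were filtered (filterByExpr), scaled with TMM factors and tested with edgeR 4.0.16 (R 4.3.3; quasi-likelihood test, 3 groups in one fit), with Benjamini-Hochberg adjustment over 11314 genes. A gene was called at an adjusted p under 0.05. CPM are counts relative to the TMM-scaled library size, as edgeR gives them, and the SE of a log2 fold change was taken from its F value. Values after ± are SD for CPM and SE for log2 fold changes. The test was tried on simulated data of 11260 genes for A1 against Negative, where it found 90% of 100 genes changed by 0.5 (log2) and 92.7% of 96 genes changed by 1, with 10 unchanged genes called. No member changed by more than 0.39, and only 200 genes were changed in the simulation. It therefore does not show how often changes of the size seen in the members are found. Refits were 11 other settings, including DESeq2 1.42.0, and 12 that each left out 1 sample, 23 in all. Totals of 13702348 to 16881995 counts limit the precision, and samples of a group differed by 1.92 to 6.87 times the counting variance.

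The members and lists were chosen with earlier results of these data known. Named genes were the mt-encoded members, core subunits and isoforms, the 6 largest called increases and decreases among nuclear members in each comparison, up to 3 called genes of each other list, and 10 regulators and carriers named whatever their values. Further called genes were named to complete small counts, after their values were seen. Replicate numbers did not pair the samples, so no block was used. The values of 1 member are not reported here, although it is included in the counts.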

Additional observations from a re-analysis of the deposited data

Results flagged for a closer look

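Of 138 groups of 4 samples examined, 129 for single members and 9 for shares of counts, 11 held a sample far from the other 3 (gap over range above Dixon's critical value for 4 samples). Chance flags about 1 in 20 such groups. In A1-OVA, replicate 4 was lowest for Ndufs1 at 125 CPM and highest for Ndufa4 at 245, Cox6b1 at 121 and Ndufv3 at 56.8 CPM, and replicate 3 was highest for Atp5g1 at 32.9 CPM. In Negative, replicate 1 was highest for Ndufa1 at 39.7 and Sdhd at 79.0 CPM, and replicate 2 was lowest for Atp5g2 at 9.52 CPM. In A1, replicate 1 stood apart for Ndufv1 at 71.3 CPM. The highest A1-OVA sample also stood apart in the mt-encoded share of counts, at 2.68%, and in the ratio of mt-encoded to nuclear member counts, at 3.6.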

How the results depend on the processing

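With library sizes alone, the A1 counts of nuclear members became 25 lower and 0 higher with a median of -0.05, and 7 mt-encoded members were lower. The A1-OVA counts became 18 lower and 0 higher with medians of -0.03 (nuclear) and -0.29 (mt-encoded), and the other pathway genes 31 higher and 29 lower. That scaling moved the median of all genes to -0.082 in A1 and -0.062 in A1-OVA. TMM within length classes gave 2 higher nuclear and 7 lower mt-encoded members in A1, 16 lower nuclear members with a median of -0.01 in A1-OVA, and 1 higher nuclear member between the treated groups. Nuclear members higher in A1 were 0 with upper-quartile factors, and those higher in A1-OVA were 2 with DESeq2, 2 with RLE factors, 1 with upper-quartile factors, 1 with all genes of the table and 1 with only the groups compared. A log2 fold change of at least 0.5 left 0 members in any comparison, and of the other genes 8 higher and 6 lower in A1, 9 and 4 in A1-OVA, and 0 and 0 between the treated groups. An adjusted p under 0.01 left 9 lower and 0 higher nuclear and 1 lower mt-encoded member in A1, 1 higher nuclear member in A1-OVA, and 0 higher and 1 lower other gene between the treated groups. Between those groups, mt-encoded members lower were 2 with DESeq2 and 5 without a filter on low counts, and other genes lower were 1 with DESeq2, upper-quartile factors, library sizes alone or no filter. The nuclear share of counts in A1-OVA was 0.765% of protein-coding counts and 0.769% of counts without mt-encoded genes. The cause of these changes was not tested.

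Samples with the same replicate number did not deviate together (mean r 0.021 over 12 pairs, -0.132 to 0.156, 2 over 0.1; 4 of 12 samples correlated best with their own number). With the replicate number as a block, 9 nuclear members were higher in A1-OVA and 5 mt-encoded members lower between the treated groups, and all other counts stayed within 1.5 times.

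Leaving out each sample in turn gave, in A1, 1 to 21 higher and 9 to 14 lower nuclear members (median 0.00 to 0.07) and 1 to 7 lower mt-encoded members (median -0.17 to -0.09). In A1-OVA it gave 1 to 18 higher and 8 to 11 lower nuclear members (median 0.00 to 0.07, the 0.00 without Negative replicate 2) and 5 to 7 lower mt-encoded members (median -0.28 to -0.20). Between the treated groups it gave 0 to 5 lower mt-encoded members (median -0.19 to -0.09) and 0 to 1 nuclear members in each direction (median -0.02 to 0.01). The mt-encoded median minus the nuclear one was -0.22 to -0.09 in A1, -0.35 to -0.20 in A1-OVA and -0.20 to -0.09 between the treated groups. Other pathway genes were 38 to 47 higher and 20 to 25 lower in A1, 41 to 47 and 15 to 19 in A1-OVA, and 1 to 3 and 1 to 4 between the treated groups. Without Negative replicate 4, 1 nuclear member was higher in each comparison with Negative.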
